A study of Mus musculus with 27 samples.

Results

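The platelet-derived growth factor (PDGF) system was read from 6 genes, the receptor genes Pdgfra and Pdgfrb and the ligand genes Pdgfa, Pdgfb, Pdgfc and Pdgfd. They were taken by symbol from the 21742 gene symbols of the linear RNA table, and all 6 had a row. In all, 27 libraries were sequenced after ribosomal RNA depletion, made of total RNA from mice of the strain BALB/c AnNHsd, whose left lung lobe was taken at an age of 87 days. In the AM155 group (n = 6), 3 intravenous doses of 2 mg/kg of an antisense oligonucleotide to the microRNA miR-155, carried by lipid nanoparticles, were given on days 11, 18 and 25 of a protocol of 35 days. Dex_CDGHDM mice (n = 6) were sensitized with an extract of house dust mite plus cyclic di-GMP, a bacterial second messenger used as adjuvant, and received 3 intraperitoneal doses of 3 mg/kg of the glucocorticoid dexamethasone on those days. CDG_HDM mice (n = 10) were sensitized in the same way without a drug, as a model of severe asthma, and Saline mice (n = 5) were not sensitized. Whether AM155 mice had been sensitized is not stated in words by the labels, and no group received empty nanoparticles or a vehicle alone. The labels number the libraries but do not state that each came from a different mouse, so p-values measure the spread between these libraries.

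PDGF ligands are dimers that bring receptor chains together at the cell surface and switch on their tyrosine kinases. The products of Pdgfra and Pdgfrb, PDGFRα and PDGFRβ, sit mainly on mesenchymal cells. In the lung, PDGF-A from epithelium acts through PDGFRα on the fibroblasts that build alveolar walls, and PDGF-B from endothelium and platelets acts through PDGFRβ on the pericytes that cover capillaries. PDGF-C and PDGF-D are secreted in a latent form and must be cut by proteases before they bind, PDGF-C mainly to PDGFRα and PDGF-D to PDGFRβ.

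The 250 bases before the start of Pdgfra, Pdgfc and Pdgfd are shown because these genes had the deepest fall, the only rise and a fall beside that rise, as described further on. They come from RefSeq (GRCm38.p6), at chr5:75152001-75152250, chr3:81036166-81036415 and chr9:6168236-6168485, all on the + strand, and capitals mark motif matches.
Pdgfra: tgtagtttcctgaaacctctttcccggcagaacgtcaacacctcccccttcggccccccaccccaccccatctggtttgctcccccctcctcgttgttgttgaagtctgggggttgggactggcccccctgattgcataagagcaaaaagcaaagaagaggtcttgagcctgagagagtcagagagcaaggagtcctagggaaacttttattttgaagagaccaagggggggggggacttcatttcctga
Pdgfc: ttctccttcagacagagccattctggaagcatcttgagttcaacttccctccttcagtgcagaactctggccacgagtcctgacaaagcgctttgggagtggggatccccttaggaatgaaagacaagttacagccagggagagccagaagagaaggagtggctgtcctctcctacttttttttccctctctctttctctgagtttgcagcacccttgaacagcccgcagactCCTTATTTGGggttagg
Pdgfd: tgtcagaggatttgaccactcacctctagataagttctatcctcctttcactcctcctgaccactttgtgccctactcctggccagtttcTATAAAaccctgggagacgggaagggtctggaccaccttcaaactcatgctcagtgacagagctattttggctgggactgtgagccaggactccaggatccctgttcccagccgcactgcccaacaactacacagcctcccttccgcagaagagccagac
Both strands were searched for the GC box GGGCGG, the TATA box TATAAA, the AP-1 site TGANTCA and the glucocorticoid half-site AGAACA, and for the CArG box by its name, the last one added after the letters had been read. The motifs do not overlap one another here. Among 32851 promoters of this length, 32.7% held the GC box, 12.4% the TATA box, 6.75% the AP-1 site, 16.1% the glucocorticoid half-site and 1.47% the CArG box. The Pdgfra sequence held none of them, the Pdgfc sequence held 1 CArG box that ends 7 bases before the start, and the Pdgfd sequence held 1 TATA box 154 bases before it. Guanine and cytosine made up 54.4% of the Pdgfra, 50.8% of the Pdgfc and 53.6% of the Pdgfd sequence, near the median of 52.4% over all promoters. The starts of Pdgfa were richer, at 66.4% for chr5:138994282-138994531, with 1 GC box, and 72.4% for chr5:138994945-138995194, with 2 GC boxes, both on the − strand. Such a match describes letters and is not evidence of binding.

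The genes lie at chr5:75152292-75198215 (+ strand, Pdgfra), chr18:61045150-61085061 (+, Pdgfrb), chr5:138976014-138997370 (−, Pdgfa), chr15:79995874-80014977 (−, Pdgfb), chr3:81036416-81214040 (+, Pdgfc) and chr9:6168584-6378850 (+, Pdgfd) of GRCm38, in the GENCODE M21 annotation. Each receptor gene has another receptor kinase gene of its class next to it on the same chromosome, with Kit starting 376700 bases after the end of Pdgfra and Csf1r 15536 bases after the end of Pdgfrb. An annotated antisense gene overlaps Pdgfra, Pdgfa, Pdgfb and Pdgfc (Gm42802, 6330403L08Rik, Gm41361 and Gm16000), and Ddi1 lies within Pdgfd on the opposite strand. Library preparation kept strand, but whether counting used it is not stated, so reads of an overlapping antisense RNA cannot be told apart from those of the gene.

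Values are TPM (transcripts per a fixed total of transcripts), in which each gene is scaled to transcript length, so that levels of different genes can be compared, and to a total per library. The linear table summed to between 542264 and 770987 TPM in AM155, between 629353 and 767968 in Dex_CDGHDM, between 628177 and 798457 in CDG_HDM and between 806446 and 858506 in Saline, the remainder being circular RNA and transcripts outside both tables. A library with more RNA outside the linear table has lower TPM for every gene in it, and the median change of all genes between CDG_HDM and Saline was −0.10 on the log2 scale. Each comparison was therefore repeated after median-of-ratios scaling, which put that median at 0.0032. Circular sums set AM155 5, AM155 6 and Dex_CDGHDM 4 apart, at between 219215 and 240756 TPM, against between 32873 and 109468 TPM in the other libraries, mostly from circular Sftpc. AM155 6 also had the smallest linear sum. The epithelial genes used as a check of the tissue, Sftpc, Sftpb, Scgb1a1, Ager and Foxj1, were present in every library. TPM values carry no read counts, so the depth behind them is unknown.

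The PDGF genes differed widely in level. The order Pdgfra, Pdgfa, Pdgfrb, Pdgfb, Pdgfd and Pdgfc, from high to low TPM, held in 25 of 27 libraries. Neighbours in this order were not always separate, since the ranges of Pdgfrb and Pdgfb overlapped within each of the 4 groups and those of Pdgfa and Pdgfrb within AM155 and Dex_CDGHDM. In Saline lungs Pdgfra averaged 188 ± 29.8 TPM and Pdgfc 0.709 ± 0.130 TPM (SD, n = 5 each). Together the 6 genes made up between 0.0252% and 0.0455% of a library's linear sum. The first 5 genes were at or above 1 TPM in all 27 libraries, and Pdgfc in 17 of 27, namely 2 of 6 AM155, 6 of 6 Dex_CDGHDM, 9 of 10 CDG_HDM and 0 of 5 Saline libraries. All 6 passed the filter of at least 1 TPM in at least 5 libraries, but Pdgfc passed it through groups other than Saline.

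**Figure D1:**
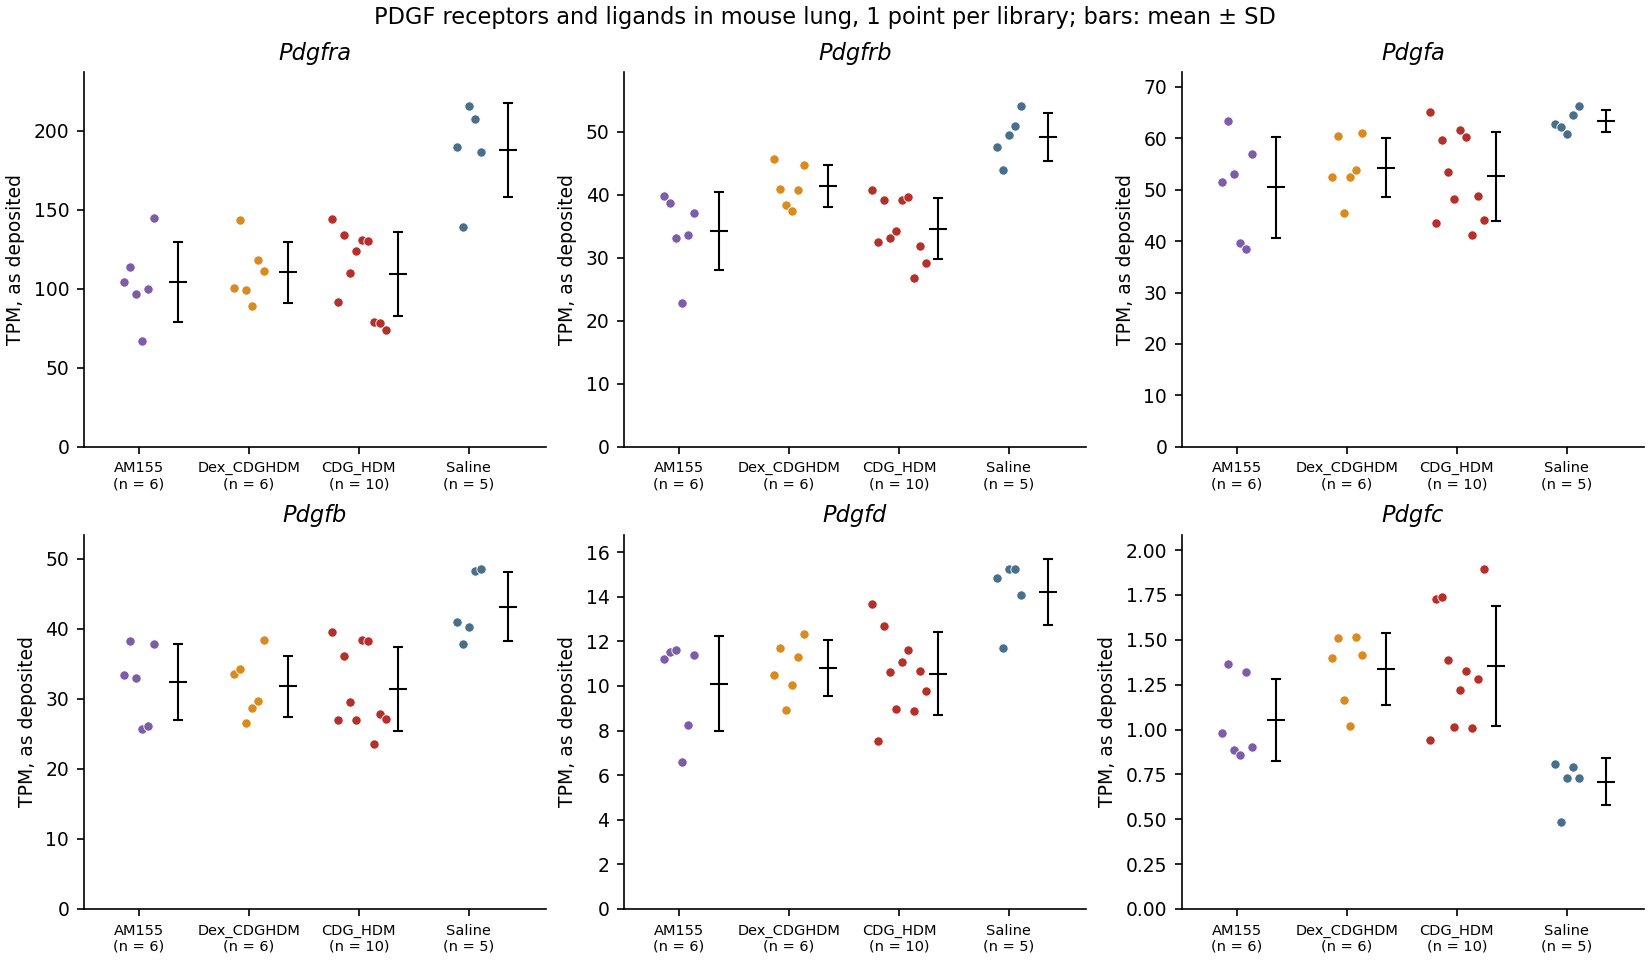
Level of each PDGF gene in TPM (vertical axes, each starting at 0) in every library of the 4 groups, with the group mean and SD beside the points. Saline points lie above most others for Pdgfra, Pdgfrb, Pdgfb and Pdgfd and below all others for Pdgfc.

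The first question was how sensitized lungs differed from unsensitized ones. In CDG_HDM lungs both receptor genes and the ligand genes Pdgfb and Pdgfd fell relative to Saline, Pdgfc rose, and Pdgfa, with a log2 difference of −0.28, did not pass the test. Of all 17437 genes tested with limma and Benjamini-Hochberg adjustment, 32.2% had an adjusted p under 0.05, with 9.35% called higher and 22.8% called lower, so a call by itself was common. The 6 genes gave 1 higher and 4 lower call. The counts were the same after median-of-ratios scaling, where 44.0% of genes were called, 22.2% higher and 21.8% lower. Fold changes are on the scale of log2(TPM + 1), which understates changes of genes near 1 TPM. In bulk tissue, where TPM is a share of a fixed total, fewer cells of a type, less RNA per cell and more RNA from other cells cannot be told apart.

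Pdgfra, the receptor for PDGF-A and PDGF-C, had the deepest fall of the 6. Its lowest, median and highest CDG_HDM values were 74.2, 117 and 144 TPM, against 189, 139, 215, 208 and 186 TPM in Saline 2, 4, 5, 8 and 10. Saline 4 was the low Saline library, and CDG_HDM 3, the highest of its group, was the only CDG_HDM library above it. The log2 change was −0.80 ± 0.162 (SE; 95% interval −1.13 to −0.46), or 0.576-fold, with an adjusted p of 0.000303 (limma). Of all genes tested, 2.76% had a lower change. After median-of-ratios scaling the change was −0.68 (adjusted p = 4.73e-05) and all 10 CDG_HDM libraries lay below all 5 Saline libraries, as 8.84% of genes did on that scale. In CDG_HDM the spread was wide, with an SD of 26.6 TPM about a mean of 109.5 TPM.

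Pdgfrb, the receptor for PDGF-B and PDGF-D, fell less deeply but with cleaner separation. CDG_HDM libraries ran from 26.7 to 40.7 TPM with a median of 33.6 TPM, against 47.5, 43.9, 49.4, 50.9 and 54.0 TPM in Saline 2, 4, 5, 8 and 10. No CDG_HDM library reached the lowest Saline value, and 8.92% of all genes were separated in this direction. The log2 change was −0.50 ± 0.105 (95% interval −0.72 to −0.29), or 0.705-fold (limma, adjusted p = 0.000399), and −0.39 after median-of-ratios scaling (adjusted p = 9.57e-07). The within-library log2 ratio of Pdgfra to Pdgfrb was 1.61 ± 0.199 in CDG_HDM and 1.9 ± 0.189 in Saline (SD), a difference of −0.29 that missed the threshold after adjustment over 27 ratio tests (exact permutation test, two-sided, p = 0.0153, adjusted p = 0.0591). Without Saline 4 the difference was −0.36 and passed.

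Among the ligands, Pdgfa, the main partner of PDGFRα, was the one without a call. Its CDG_HDM values ran from 41.1 to 65.2 TPM with a median of 51.2 TPM, against 62.8, 62.2, 60.8, 64.6 and 66.2 TPM in Saline 2, 4, 5, 8 and 10. The 5 Saline values lay close together, and 8 of 10 CDG_HDM libraries were below all of them. The log2 difference was −0.28 ± 0.112 (95% interval −0.51 to −0.05; limma, adjusted p = 0.0536), and it was −0.17 after median-of-ratios scaling (adjusted p = 0.0905). Without CDG_HDM 3, 5, 9 or 10 it passed, within a range of −0.32 to −0.24 over all libraries left out in turn.

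Pdgfb, which encodes the ligand that binds both receptors, fell. Its CDG_HDM values ran from 23.5 to 39.5 TPM with a median of 28.6 TPM, against 40.9, 37.8, 40.2, 48.3 and 48.6 TPM in Saline 2, 4, 5, 8 and 10. The groups met only at Saline 4, which 3 CDG_HDM libraries exceeded. The log2 change was −0.46 ± 0.119 (95% interval −0.70 to −0.22; limma, adjusted p = 0.00333).

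Pdgfd, a ligand of PDGFRβ, fell by a similar amount. CDG_HDM libraries ran from 7.51 to 13.7 TPM with a median of 10.6 TPM, against 14.8, 11.7, 15.3, 15.2 and 14.1 TPM in Saline 2, 4, 5, 8 and 10. Saline 4 was again the lowest of its group, and 8 of 10 CDG_HDM libraries were below it. The log2 change was −0.41 ± 0.119 (95% interval −0.65 to −0.17; limma, adjusted p = 0.00814). After median-of-ratios scaling Pdgfb changed by −0.35 (adjusted p = 0.000841) and Pdgfd by −0.30 (adjusted p = 0.00323).

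Pdgfc, a ligand of PDGFRα, moved the other way, at a level near the filter. CDG_HDM libraries ran from 0.943 to 1.9 TPM with a median of 1.30 TPM, against 0.811, 0.486, 0.730, 0.793 and 0.728 TPM in Saline 2, 4, 5, 8 and 10. All 10 CDG_HDM values lay above all 5 Saline values, a separation that 5.06% of genes showed in this direction. The log2 change was 0.45 ± 0.092 (95% interval 0.26 to 0.64), or 1.37-fold on the scale of TPM + 1 (limma, adjusted p = 0.000301). At this level its size depends on the pseudocount, being 0.83 with 0.1 TPM and 0.15 with 5 TPM added. After median-of-ratios scaling it was 0.50 (adjusted p = 2.41e-05). Pdgfc passed the filter only through groups other than Saline, so its call and separation describe a gene selected where it is high. Without a filter the limma adjusted p was 0.000309.

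**Figure D2:**
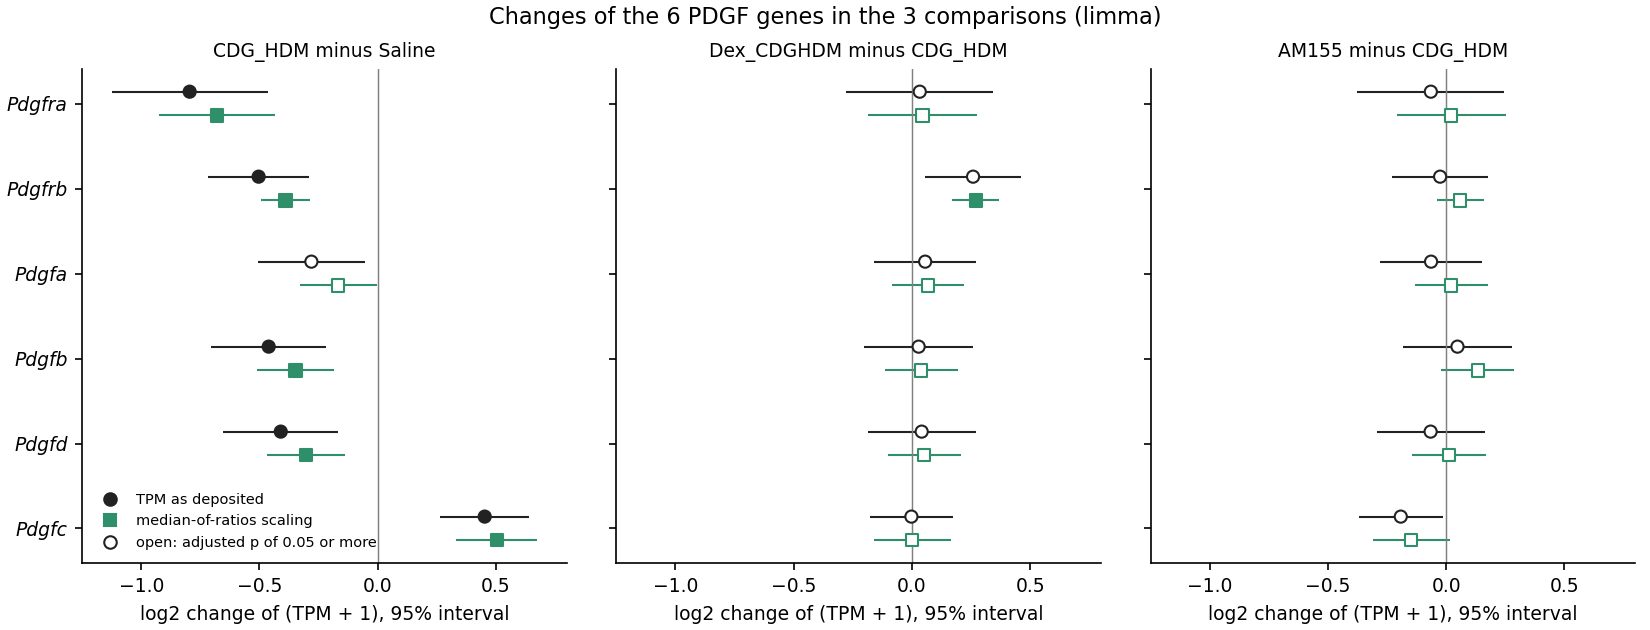
Log2 change of each PDGF gene with its 95% interval (horizontal axis) in the 3 comparisons, from TPM as deposited (circles) and after median-of-ratios scaling (squares); open symbols have an adjusted p of 0.05 or more. The left panel has 4 filled falls and the filled rise of Pdgfc, and the middle panel has 1 filled symbol, Pdgfrb after scaling, at 0.27.

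Ratios of TPM + 1 within a library depend little on how the library was scaled, except for Pdgfc, which is near 1 TPM. The log2 ratio of Pdgfa to Pdgfra was −1.02 ± 0.199 in CDG_HDM and −1.54 ± 0.249 in Saline, so this ligand was higher relative to its receptor by 0.51 (exact permutation test, two-sided, p = 0.0020, adjusted p = 0.018). Pdgfa rose relative to Pdgfb, with log2 ratios of 0.73 ± 0.0695 in CDG_HDM and 0.55 ± 0.122 in Saline (difference 0.18, exact p = 0.0033, adjusted p = 0.018). Pdgfc rose relative to Pdgfd, the other ligand that needs cleavage, with −2.29 ± 0.337 in CDG_HDM and −3.15 ± 0.0536 in Saline (difference 0.86, exact p = 0.0007, adjusted p = 0.018; 1.27 with 0.1 TPM added in place of 1). Pdgfc reached 1 TPM in 0 of 5 Saline libraries and passed the filter through the other groups. This ratio too therefore describes a gene selected where it is high.

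For the PDGFRβ pairs no such difference passed the test. The log2 ratio of Pdgfb to Pdgfrb was −0.15 ± 0.0983 in CDG_HDM and −0.19 ± 0.0808 in Saline (difference 0.04, exact p = 0.414, adjusted p = 0.62). That of Pdgfd to Pdgfrb differed by 0.09 (exact permutation test, adjusted p = 0.477). All ratio tests were two-sided exact permutation tests over libraries, adjusted together.

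**Figure D3:**
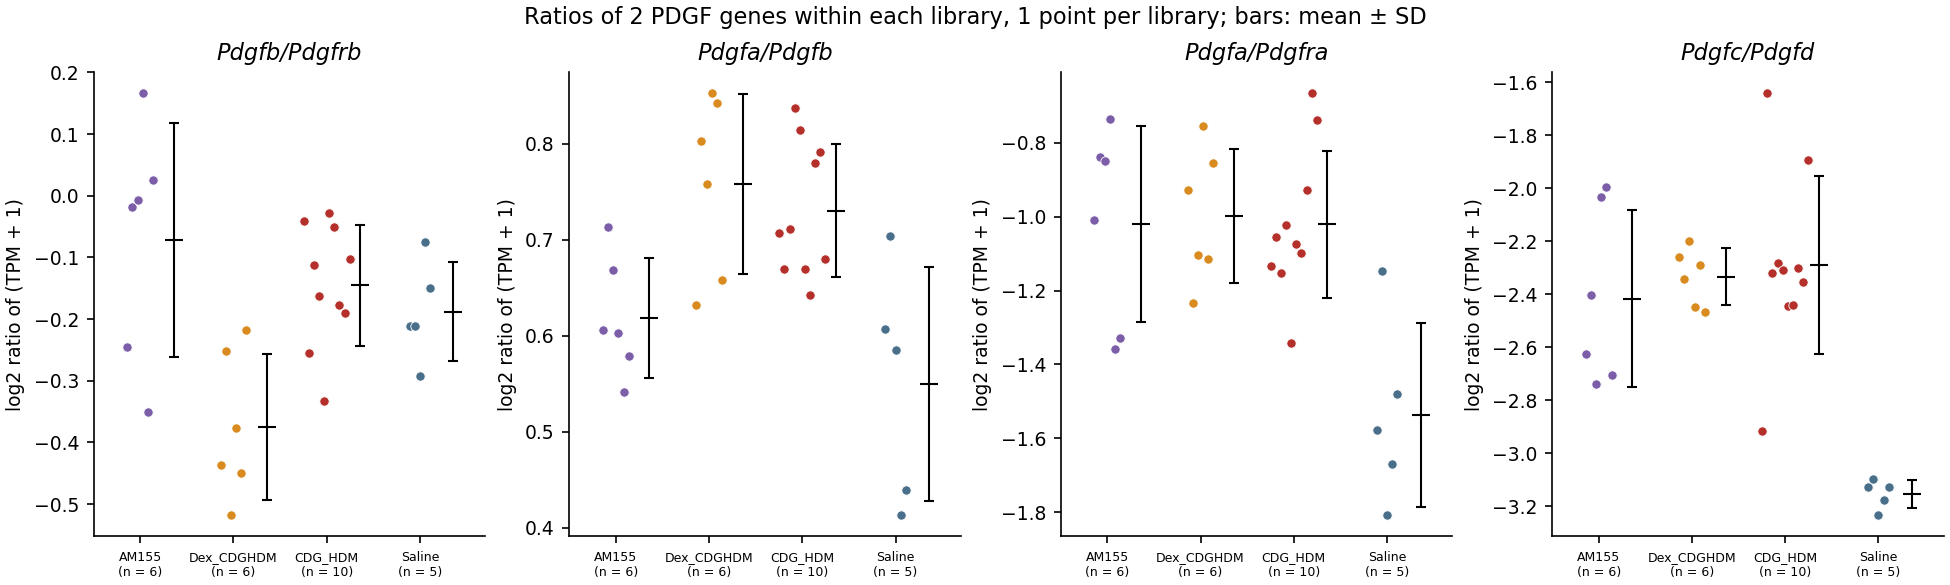
Log2 ratio of TPM + 1 between 2 PDGF genes (vertical axes) in every library of the 4 groups, with mean and SD, for Pdgfb to Pdgfrb, Pdgfa to Pdgfb, Pdgfa to Pdgfra and Pdgfc to Pdgfd. Dex_CDGHDM has the lowest mean for Pdgfb to Pdgfrb, −0.38, and Saline has the lowest mean for the other ratios.

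On the deposited TPM, none of 3 lists of genes that act with the ligands and receptors had shares of called genes far from the 9.35% higher and 22.8% lower of all genes tested, so their counts are not results about the lists. Of 6 genes for processing enzymes and co-receptors, 0 rose and 1 fell (0% higher and 16.7% lower in CDG_HDM), with a median log2 change of −0.16. The one that fell was Nrp1, a co-receptor for PDGF and VEGF ligands, at 99.3 ± 16.9 TPM in CDG_HDM and 147 ± 6.86 TPM in Saline (−0.58 ± 0.117, limma adjusted p = 0.000256). The proteases that cut the latent ligands had differences of −0.28 for Plat, whose product cuts PDGF-C, and of −0.20 for Plau and 0.06 for St14, whose products cut PDGF-D, and none of these passed the test.

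Of 16 genes that carry the receptor signal, 2 rose and 5 fell (12.5% higher and 31.2% lower, median −0.18). The falls were led by Gab1, a docking protein (−0.53, limma adjusted p = 0.000102), Nck2, an adaptor (−0.41, adjusted p = 0.000286), Plcg1, a phospholipase that binds the activated receptors (−0.39, adjusted p = 0.0126), and Ptpn11, a phosphatase that promotes signalling (−0.37, adjusted p = 0.00617). Pik3r1 (−0.32) also fell, and Grb2 (0.36) and Stat5a (0.31) rose. Of 7 genes that restrain the receptors, 1 rose, the phosphatase gene Ptpn2 (0.26, adjusted p = 0.0195), and 1 fell, the ubiquitin ligase gene Cblb (−0.28, adjusted p = 0.0127), or 14.3% in each direction, with a median of 0.13. Counts depended on scaling. After median-of-ratios scaling, where 22.2% of all genes were called higher and 21.8% lower, 3 of the 16 signalling genes were higher and 7 lower (18.8% and 43.8%). Of the 7 restraining genes 4 were higher and 1 lower (57.1% and 14.3%). The 6 processing and co-receptor genes gave 1 call in each direction (16.7% each). On this scale the lower share of the signalling genes and the higher share of the restraining genes thus exceeded those of all genes.

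Of 12 genes that PDGF induces in cultured fibroblasts, 7 rose and 3 fell, with a median of 0.31. That is 58.3% higher and 25.0% lower, against 9.35% and 22.8% of all genes, so the lower share was near that of all genes. The chemokine genes Ccl2 (0.87, adjusted p = 0.00121), Cxcl1 (0.74, adjusted p = 0.00696) and Ccl7 (0.71, adjusted p = 0.0138) were the largest rises in limma. Ccl2 averaged 7.08 ± 3.33 TPM in CDG_HDM and 3.22 ± 0.923 TPM in Saline. The transcription factor gene Egr1 fell, at 4.09 ± 0.499 TPM in CDG_HDM and 8.38 ± 3.16 TPM in Saline (−0.82, adjusted p = 0.00069), as did the early response genes Fosb (−0.69) and Ier2 (−0.41). Many other stimuli induce these genes, so the list is no measure of PDGF receptor activity.

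Related growth factor families moved too, beside shares of 9.35% higher and 22.8% lower over all genes. Of 8 genes of the VEGF family, whose ligands share the PDGF fold, 0 rose and 5 fell (median −0.58), led by the receptor genes Kdr (−1.09) and Flt1 (−0.94) and the ligand gene Vegfa, at 339 ± 99.7 TPM in CDG_HDM and 630 ± 71.6 TPM in Saline (−0.94), with Vegfd (−0.62) and Flt4 (−0.54) after them. Among 7 other genes of the receptor class of Pdgfra and Pdgfrb and their ligands, 3 rose and 2 fell. That is 42.9% higher and 28.6% lower, so the lower share was near that of all genes. Flt3 (1.35) and Il34 (0.26) rose and Kitl (−0.83) fell. The neighbours on the chromosome differed in direction from one another, as Csf1r rose, at 67.0 ± 10.8 TPM in CDG_HDM and 37.3 ± 2.43 TPM in Saline (0.81, limma adjusted p = 1.26e-06), beside a fall of Pdgfrb. Kit fell, at 38.4 ± 8.27 TPM in CDG_HDM and 59.7 ± 7.70 TPM in Saline (−0.64, adjusted p = 0.000573), beside a fall of Pdgfra.

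Markers of the cells that carry the receptors were lower in the same lungs, where 9.35% of all genes were called higher and 22.8% lower. Of 13 pericyte markers 1 rose and 11 fell (median −0.60), among them Lamc3 (−0.92), Cspg4 (−0.87), Notch3 (−0.74) and Cox4i2 (−0.66), while Kcnj8 rose (0.24), and their summed level ran from 332 to 524 TPM in CDG_HDM and from 550.2 to 670.2 TPM in Saline. The log2 level of Pdgfrb relative to the mean of these markers was 0.75 ± 0.0934 in CDG_HDM and 0.74 ± 0.0567 in Saline, a difference of 0.02 (exact permutation test, p = 0.803, adjusted p = 0.846).

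Of 10 alveolar fibroblast markers 0 rose and 8 fell (median −0.59), led by Slc7a10 (−1.72), Inmt (−0.90), Ces1d (−0.76) and Itga8 (−0.64). Their summed level ran from 2091 to 3578 TPM in CDG_HDM and from 3724 to 5022 TPM in Saline. Such a sum is weighted toward the most abundant gene of its list. Here Inmt alone averaged 1563 TPM in CDG_HDM and 2854 TPM in Saline. Pdgfra relative to them was 0.20 ± 0.0976 in CDG_HDM and 0.36 ± 0.169 in Saline, a difference of −0.17 that did not pass the adjusted threshold (exact permutation test, p = 0.0366, adjusted p = 0.11), but was −0.24 and passed without Saline 4. Of 10 adventitial fibroblast markers 1 rose and 6 fell (median −0.36), and Pi16 (−1.16), Gsn (−1.01), Clec3b (−0.94) and Scara5 (−0.83) fell furthest, while Dpt rose (0.55), with 2 higher and 4 lower after median-of-ratios scaling and with sums between 734 and 1223 TPM in CDG_HDM and between 1539 and 1811 TPM in Saline. Of 11 smooth muscle markers 0 rose and 10 fell (median −0.82), led by Cnn1 (−1.49), Acta2 (−1.20) and Actg2 (−1.14), with sums between 215 and 522 TPM in CDG_HDM and between 714 and 947 TPM in Saline.

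Of the PDGF-B sources named earlier, endothelium had lower markers and platelets had lower markers in part, while 22.8% of all genes were called lower. Of 14 endothelial markers 0 rose and 12 fell (median −0.85), led by Tek (−1.36), Ptprb (−1.15), Kdr (−1.09) and Ramp2 (−1.07), with sums between 1336 and 2602 TPM in CDG_HDM and between 3143 and 3754 TPM in Saline. Pdgfb fell less than these markers, its log2 level relative to their mean being −1.54 ± 0.167 in CDG_HDM and −1.87 ± 0.127 in Saline (difference 0.33, exact permutation test, p = 0.0027, adjusted p = 0.018). Of 6 platelet and megakaryocyte markers tested 0 rose and 3 fell, Ppbp (−0.93), Itga2b (−0.61) and Treml1 (−0.40), and their sums overlapped, at 55.0 to 80.0 TPM in CDG_HDM and 61.0 to 87.9 TPM in Saline.

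Markers of other tissue parts changed as well, in both directions, while 9.35% of all genes were called higher and 22.8% lower. Of 10 macrophage markers 9 rose and 1 fell (median 1.52), led by Ms4a7 (2.98), C1qb (2.67), C1qc (2.57) and C1qa (2.53), while Marco fell (−0.79), with sums between 741 and 1673 TPM in CDG_HDM and between 262 and 295 TPM in Saline. Of 6 T cell markers 5 rose and 0 fell (median 1.71), led by Icos (1.88), Cd3g (1.87), Thy1 (1.76) and Cd4 (1.66), with sums between 154 and 271 TPM in CDG_HDM and between 49 and 83.4 TPM in Saline. Of 7 cardiac muscle markers, which in lung mark pulmonary vein muscle or heart tissue taken along, 0 rose and 7 fell, led by Nppa (−2.81), with sums between 84.3 and 338 TPM in CDG_HDM and between 455 and 1314 TPM in Saline. Of 5 mesothelial markers 0 rose and 4 fell (median −0.89), with sums between 61.4 and 101 TPM in CDG_HDM and between 123 and 160.1 TPM in Saline, and of the 5 epithelial genes 0 rose and 2 fell, Scgb1a1 (−1.16) and Ager (−0.40). No tested gene of these lists was at 0 in any library. The part of these shifts in the PDGF changes was not tested, beyond the ratios to pericyte, alveolar fibroblast and endothelial markers given above. Of 12 fibrosis and matrix genes, 5 rose and 0 fell (median 0.06), among them Spp1 (1.60), Tnc (1.03), Col3a1 (0.46) and Col1a2 (0.39).

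**Figure D4:**
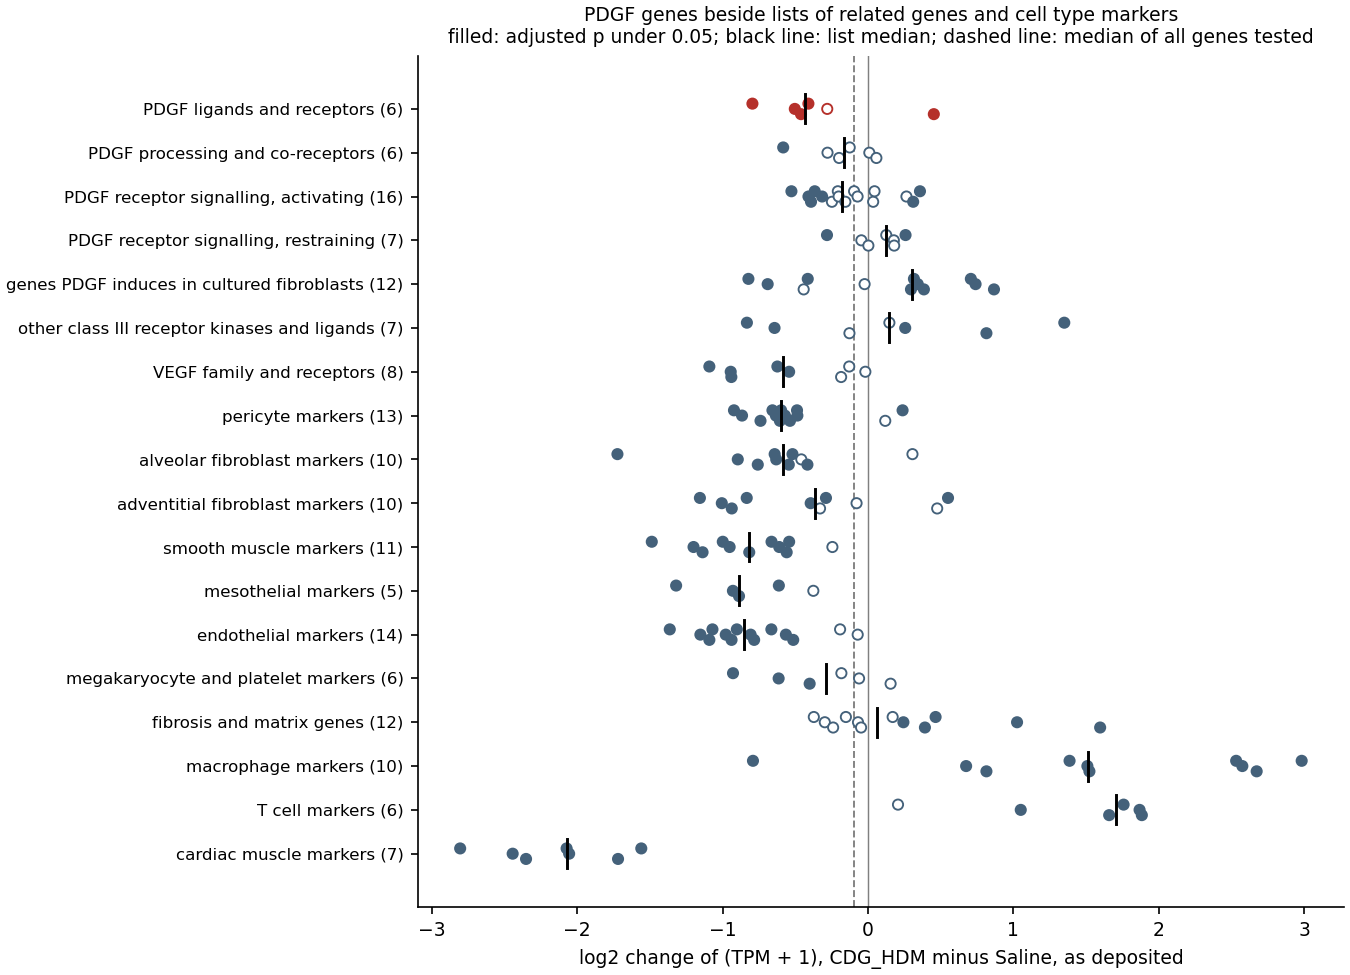
Log2 change of each gene in CDG_HDM minus Saline (horizontal axis), 1 row per gene list, with filled points for genes that passed the test, a black line at the list's median and a dashed line at the median of all genes, −0.10. Pericyte, fibroblast, smooth muscle and endothelial rows lie mostly left of the dashed line, and macrophage and T cell rows lie mostly right of it.

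The second question was what dexamethasone did to sensitized lungs. This comparison and the one of AM155 share the CDG_HDM libraries with each other and with the first. No PDGF gene passed the test in Dex_CDGHDM against CDG_HDM on the deposited TPM, in a comparison where 1 gene of 17437 did (0.00573%) and 693 had an unadjusted p under 0.05 in limma. The largest difference was that of Pdgfrb. Its lowest, median and highest Dex_CDGHDM values were 37.5, 40.9 and 45.7 TPM, against 26.7, 33.6 and 40.7 TPM in CDG_HDM. All 6 Dex_CDGHDM libraries were above the CDG_HDM mean of 34.6 TPM, and 4 were above every CDG_HDM library. The log2 difference was 0.26 ± 0.099 (95% interval 0.06 to 0.46; limma, unadjusted p = 0.0139, adjusted p = 0.936).

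The spread of Pdgfrb within groups shrank once libraries were scaled to their common genes. After median-of-ratios scaling its lowest, median and highest values were 38.9, 41.5 and 44.1 TPM in Dex_CDGHDM, against 30.8, 33.9 and 38.6 TPM in CDG_HDM, and 43.1, 44.0 and 48.5 TPM in Saline. All 6 Dex_CDGHDM libraries then lay above all 10 CDG_HDM libraries, as 0.126% of genes did. The change was 0.27 ± 0.048 (95% interval 0.17 to 0.37; limma, adjusted p = 0.0203), in a comparison where 0.270% of genes were called on this scale, 0.178% higher. Scaling to a common linear sum gave 0.30 (adjusted p = 0.0253) and quantile scaling 0.28 (adjusted p = 0.0175). The scaled call was lost without Dex_CDGHDM 3 or without Dex_CDGHDM 4, at changes between 0.25 and 0.29 over all libraries left out in turn. It was also lost without AM155 5, AM155 6 and Dex_CDGHDM 4, the libraries of high circular sum, at 0.26 (adjusted p = 0.0531).

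**Figure D5:**
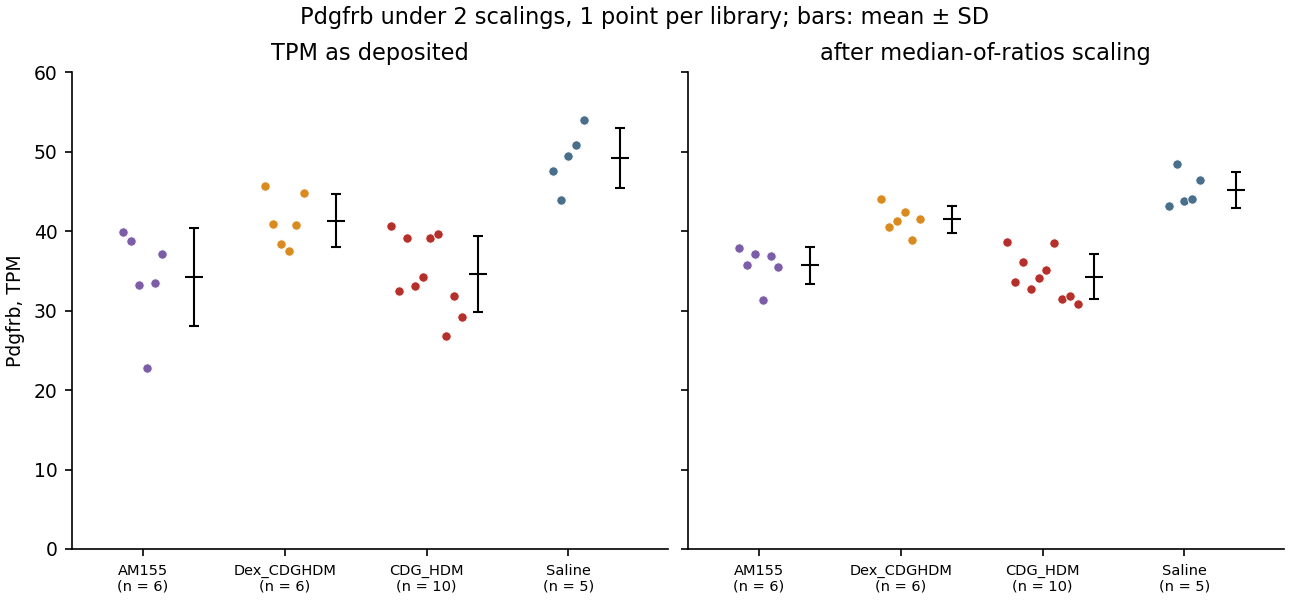
Pdgfrb in TPM (vertical axis from 0) in every library of the 4 groups, as deposited on the left and after median-of-ratios scaling on the right, with mean and SD. After scaling the Dex_CDGHDM points, at a mean of 41.5 TPM, lie above all CDG_HDM points, at a mean of 34.3 TPM, and the Saline mean is 45.2 TPM.

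The ratio of Pdgfb to Pdgfrb, which depends little on scaling, differed between the 2 groups. It averaged −0.38 ± 0.118 on the log2 scale in Dex_CDGHDM, with a range of −0.52 to −0.22, and −0.15 ± 0.0983 in CDG_HDM, with a range of −0.33 to −0.03. The ranges overlapped, and the difference of −0.23 passed the test (exact permutation test, two-sided, p = 0.0022, adjusted p = 0.018). It passed in each of the 16 fits that left out 1 library, at −0.26 to −0.20. Pdgfd relative to Pdgfrb differed by −0.22 (exact permutation test, p = 0.019, adjusted p = 0.0641), Pdgfra relative to Pdgfrb by −0.23 (adjusted p = 0.161) and Pdgfrb relative to the pericyte markers by 0.12 (adjusted p = 0.111), none past the threshold. The first passed without Dex_CDGHDM 2, without CDG_HDM 4 or without CDG_HDM 8, at −0.26 in the fit without CDG_HDM 4. The second passed without Dex_CDGHDM 2, at −0.31, and the third without CDG_HDM 4, at 0.14.

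The other PDGF genes lay close to CDG_HDM. Pdgfra averaged 110.3 ± 19.1 TPM in Dex_CDGHDM and 109.5 ± 26.6 TPM in CDG_HDM, a log2 difference of 0.03 (95% interval −0.28 to 0.34). The intervals were −0.16 to 0.27 for Pdgfa, −0.20 to 0.26 for Pdgfb, −0.19 to 0.27 for Pdgfd and −0.18 to 0.17 for Pdgfc. Changes within these bounds stay possible, and a change outside them could also go uncalled after adjustment over all genes. Pdgfc was 1.02, 1.41 and 1.52 TPM at its lowest, median and highest in Dex_CDGHDM, and 0.943, 1.30 and 1.9 TPM in CDG_HDM.

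No gene of the pathway and marker lists passed the test in this comparison on the deposited TPM. Among the most abundant of each list, Lrp1, a co-receptor, differed by 0.12, Shc1, an adaptor, by 0.25, Vegfa by 0.05, Inmt by 0.15 and Egfl7 by 0.03. The pericyte markers had a median of 0.10 and sums between 424 and 530.0 TPM in Dex_CDGHDM and between 332 and 524 TPM in CDG_HDM, and their part in the Pdgfrb difference was not tested beyond the ratio above. After median-of-ratios scaling 1 pericyte marker was called, Gucy1a3, a guanylate cyclase subunit gene now named Gucy1a1, at 81.3 ± 2.92 TPM in Dex_CDGHDM and 66.6 ± 7.21 TPM in CDG_HDM (0.29, limma adjusted p = 0.0345). T cell markers had a median of −0.43 in Dex_CDGHDM, none called.

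The third question was what the antisense oligonucleotide to miR-155 did. The mature miRNA it targets, miR-155-5p, is shown with its seed, bases 2 to 8, in capitals, from RefSeq at chr16:84714143-84714165 (GRCm38.p6, + strand).
miR-155-5p: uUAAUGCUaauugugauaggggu
The site that pairs with this seed, AGCATTA, was in the annotated 3′ UTR of 0 of the 6 PDGF genes, whose 3′ UTRs measured between 1203 and 3115 bases, and in that of 9.09% of 16926 tested genes. The median log2 difference between AM155 and CDG_HDM was −0.07 for tested genes with a site and −0.08 for those without.

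None of the PDGF genes passed the test in AM155 against CDG_HDM, where 0.103% of genes did (18 of 17437, with 1263 at an unadjusted p under 0.05 in limma), and none did after median-of-ratios scaling, where 0.201% did. Pdgfc had the largest difference, with 0.858, 0.942 and 1.37 TPM at its lowest, median and highest in AM155, against 0.943, 1.30 and 1.9 TPM in CDG_HDM. The groups overlapped, and the log2 difference was −0.19 ± 0.087 (95% interval −0.37 to −0.01; limma, adjusted p = 0.667). Pdgfra averaged 104 ± 25.4 TPM in AM155 and 109.5 ± 26.6 TPM in CDG_HDM (interval of the log2 difference −0.38 to 0.25), and Pdgfrb 34.2 ± 6.21 TPM in AM155 and 34.6 ± 4.81 TPM in CDG_HDM (−0.23 to 0.18). The intervals were −0.28 to 0.15 for Pdgfa, −0.18 to 0.28 for Pdgfb and −0.29 to 0.16 for Pdgfd. AM155 6, the library with the smallest linear sum, was the lowest of its group for Pdgfra, Pdgfrb, Pdgfb, Pdgfc and Pdgfd, at 66.6, 22.8, 25.7, 0.858 and 6.60 TPM.

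The ratio of Pdgfa to Pdgfb was lower in AM155, at 0.62 ± 0.0621 against 0.73 ± 0.0695 in CDG_HDM on the log2 scale (difference −0.11, exact permutation test, two-sided, p = 0.0065, adjusted p = 0.0292). The call was lost without AM155 2, 6, 8 or 11, with differences between −0.13 and −0.10 over all libraries left out in turn. No other ratio passed in this comparison, the smallest adjusted p among them being 0.267 for Pdgfb relative to endothelial markers (exact permutation test). No gene of the pathway and marker lists was called, and the list medians lay between −0.19 for the epithelial genes and 0.24 for the adventitial fibroblast markers.

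Each treated group was also set against Saline, which shares its libraries with the first comparison. In Dex_CDGHDM against Saline, where 25.1% of genes were called, 7.59% higher and 17.5% lower, Pdgfc rose (0.45, limma adjusted p = 0.00136) and Pdgfra (−0.76, adjusted p = 0.00196), Pdgfb (−0.43, adjusted p = 0.0154) and Pdgfd (−0.37, adjusted p = 0.038) fell. Pdgfrb, with −0.24 (95% interval −0.48 to −0.01; adjusted p = 0.124), and Pdgfa, with −0.22 (adjusted p = 0.189), did not pass. With median-of-ratios scaling Pdgfrb was at −0.12 (limma, adjusted p = 0.104) and Pdgfa at −0.10 (adjusted p = 0.413). Pdgfc (0.50), Pdgfra (−0.63), Pdgfb (−0.31) and Pdgfd (−0.25) kept their direction. In AM155 against Saline, where 40.5% of genes were called, 7.82% higher and 32.7% lower, all 6 PDGF genes passed, with falls of Pdgfra (−0.86, adjusted p = 0.000408), Pdgfrb (−0.53, adjusted p = 0.000695), Pdgfd (−0.48, adjusted p = 0.00518), Pdgfb (−0.41, adjusted p = 0.0141) and Pdgfa (−0.34, adjusted p = 0.0269) and a rise of Pdgfc (0.26, adjusted p = 0.041). After median-of-ratios scaling, with 40.0% of genes called there, 20.2% higher and 19.7% lower, Pdgfb (adjusted p = 0.0533) and Pdgfa (adjusted p = 0.2) no longer passed. Since Pdgfc passed the filter only through groups other than Saline, its rises against Saline describe a gene selected where it is high. Set directly against AM155, Dex_CDGHDM had a Pdgfrb difference of 0.28 ± 0.111 (limma, adjusted p = 0.52; 0.0803% of genes called) and of 0.21 after scaling (adjusted p = 0.0678; 0.596% called).

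Across the 27 libraries, with group means removed, the genes whose log2(TPM + 1) followed a PDGF gene most closely were sought among 12522 genes with a mean of at least 5 TPM. All points share each library's scaling, which enters each correlation. For Pdgfra these were Ppp1r2 (Pearson r = 0.948), Sipa1l2 (0.947) and Tgfbr3 (0.945), for Pdgfrb Mtss1 (0.957), Cc2d2a (0.947) and Emc1 (0.940), and for Pdgfa Bcam (0.951), Cnn3 (0.948) and Sema3e (0.947). For Pdgfb they were Lgalsl (0.935), Pdgfa (0.929) and Map6 (0.923), for Pdgfd Antxr2 (0.928) and Dcbld1 (0.925) beside a symbol turned into a date, and for Pdgfc Gm10645 (0.803), Rnf149 (0.774) and Mxd1 (0.731). After median-of-ratios scaling the closest genes were Fmo2 for Pdgfra (0.911), Bmper for Pdgfrb (0.785), Emp2 for Pdgfa (0.901), Lgalsl for Pdgfb (0.847), Dcbld1 for Pdgfd (0.849) and Gm10645 for Pdgfc (0.766). Among themselves, the 5 PDGF genes other than Pdgfc had r between 0.707 and 0.929 on the deposited scale and between 0.344 and 0.837 after scaling. Pdgfc had r between −0.01 and 0.17 with them on the deposited scale and between −0.45 and −0.34 after scaling.

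Circular RNA was listed by gene symbol without junctions, so its values belong to a host gene and to no particular circle. Circular RNA of Pdgfd was above 0 in 6 of 6 AM155, 5 of 6 Dex_CDGHDM, 7 of 10 CDG_HDM and 4 of 5 Saline libraries, with medians of 4.68, 2.52, 3.12 and 5.00 TPM in that order. Circular RNA of Pdgfra was above 0 in 7 of 27 libraries, 2 of 6 AM155, 1 of 6 Dex_CDGHDM, 1 of 10 CDG_HDM and 3 of 5 Saline. That of Pdgfa and that of Pdgfb were above 0 in 4 libraries each and listed at 0 in the rest. Only Pdgfra and Pdgfd entered the circular test, and neither was called in any of the 3 comparisons with limma. With 3.48e-06 TPM added, a 0 lies very far below any other value. This fit therefore mostly scores how often a value is 0, and its lack of a call says little about levels. In CDG_HDM against Saline its log2 changes were −11.1 ± 5.00 for Pdgfra and −2.62 ± 4.34 for Pdgfd (SE). In CDG_HDM against Saline 0.749% of 2271 circular rows were called (17, with 240 at an unadjusted p under 0.05), and Pdgfra had an unadjusted p of 0.0358 (adjusted p = 0.423). In the other 2 comparisons 0 rows were called, with 113 and 114 at an unadjusted p under 0.05. With 1 TPM added instead, Pdgfra changed by −2.05 in CDG_HDM against Saline (limma, unadjusted p = 0.0201, adjusted p = 0.252). That fit called 21 of 2271 rows there, 1 in Dex_CDGHDM and 0 in AM155 against CDG_HDM.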

How the data were processed

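Total RNA of the left lung lobe was measured in 27 libraries. The authors deposited TPM values per gene symbol, in a linear and a circular table. Per the submitters' processing notes, CASAVA 1.9 and the mm10 build were used, while the sources used here name no aligner, quantifier, annotation or filter. Columns were matched to libraries by the sample descriptions, which hold the column names, and 0 columns had no sample. Groups follow the labels.

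Linear values were transformed as log2(TPM + 1), and the 17437 of 21742 symbols with at least 1 TPM in at least 5 libraries entered 1 limma 3.58.1 model (R 4.3.3, eBayes with a trend), two-sided, with Benjamini-Hochberg adjustment over all genes at 0.05. Circular values were transformed as log2(TPM + 3.48e-06) for 2271 of 4416 rows, 3.48e-06 being the smallest value above 0 of a library, taken as a median. The fits were also run on simulated normal noise with known changes added. That noise was independent between genes and had no differences in library scaling, so those runs do not cover effects of scaling. Within-library ratios were compared by exact permutation tests (SciPy 1.17.1), adjusted over 27 tests. A ratio of 2 genes is that of their TPM + 1, on the log2 scale, and a level relative to markers is log2(TPM + 1) minus the mean of the markers' log2(TPM + 1). Figures used matplotlib 3.10.9.

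Alternatives were pseudocounts of 0.1 and 5, no filter, 3 scalings (common linear sum, median-of-ratios, quantile), a fit of the 2 groups alone, library weights, a replicate block and each library left out. Circular values were also fitted with a pseudocount of 1. Added after seeing the data were fits without the 3 libraries whose circular sum was above 200000 TPM and further settings for Pdgfrb after median-of-ratios scaling. The rule for named genes took all 6 PDGF genes. From each list it took up to 4 called genes of largest change, or, with none called, the gene highest in TPM, and for each PDGF gene the 3 genes most like it. Some further list genes are named, chosen after their values were seen. The PDGF genes and the lists were chosen with earlier results of these data known. Gucy1a1, Gucy1b1 and Ccn2 stand in the table under the older symbols Gucy1a3, Gucy1b3 and Ctgf.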

Additional observations from a re-analysis of the deposited data

Results flagged for a closer look

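Among the PDGF genes in the 4 groups, 1 library stood far from its group. Pdgfc in Saline 4 was at 0.486 TPM, while the other Saline libraries lay between 0.728 and 0.811 TPM. Its gap to the next library was 0.745 of the group's whole range, above Dixon's critical value of 0.71 for 5 samples. Chance alone flags about 1 in 20 groups, and each PDGF gene was screened in each of the 4 groups, on deposited TPM only. After median-of-ratios scaling Saline 4 was at 0.537 TPM and the other Saline libraries between 0.625 and 0.736 TPM. On deposited TPM Saline 4 was also the lowest Saline library for Pdgfra, Pdgfrb, Pdgfb and Pdgfd, and its median-of-ratios size factor of 0.906 was the lowest of the Saline group. Without Saline 4 the rise of Pdgfc in CDG_HDM against Saline kept its call.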

How the results depend on the processing

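The 5 called PDGF changes between CDG_HDM and Saline kept direction and call with each library left out, with both other pseudocounts, without a filter, under the 3 scalings, in the 2-group fit, with library weights and without the 3 libraries of high circular sum. Pdgfa, not called there, was called under quantile scaling (−0.20), in the 2-group fit (−0.28), with weights (−0.24) and without the 3 libraries (−0.28), and ran from −0.32 to −0.24 with each library left out, being called without CDG_HDM 3, 5, 9 or 10. Pdgfrb in Dex_CDGHDM against CDG_HDM was called under common-sum (0.30), median-of-ratios (0.27) and quantile scaling (0.28). After median-of-ratios scaling it ran from 0.25 to 0.29 with each library left out and was 0.26 without the 3 libraries. The causes of these shifts were not tested.

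Differences that were not called and lay near 0 changed sign. Pdgfc in Dex_CDGHDM against CDG_HDM was 0.0043 with a pseudocount of 0.1, 0.020 with a common sum, 0.0014 with median-of-ratios scaling, 0.060 with weights and 0.039 without the 3 libraries. In AM155 against CDG_HDM, common-sum, median-of-ratios and quantile scaling gave 0.052, 0.022 and 0.040 for Pdgfa, 0.041, 0.013 and 0.0050 for Pdgfd, 0.052, 0.022 and 0.048 for Pdgfra, and 0.089, 0.059 and 0.071 for Pdgfrb. Weights and leaving out the 3 libraries gave 0.012 and 0.012 for Pdgfd, 0.0045 and 0.11 for Pdgfra, and 0.069 and 0.12 for Pdgfrb. With each library left out, differences against CDG_HDM in Dex_CDGHDM ran from −0.026 to 0.077 for Pdgfb, −0.032 to 0.039 for Pdgfc, −0.0058 to 0.090 for Pdgfd and −0.046 to 0.090 for Pdgfra. In AM155 they ran from −0.13 to 0.0086 for Pdgfa, −0.0023 to 0.11 for Pdgfb, −0.11 to 0.038 for Pdgfd, −0.17 to 0.056 for Pdgfra and −0.073 to 0.083 for Pdgfrb.

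Ratios with each library left out ran as follows. Pdgfra to Pdgfrb ran from −0.36 to −0.24 in CDG_HDM against Saline, called without Saline 4, from −0.31 to −0.17 in Dex_CDGHDM against CDG_HDM, called without Dex_CDGHDM 2, and from −0.11 to 0.00049 in AM155 against CDG_HDM. Pdgfa to Pdgfb in AM155 ran from −0.13 to −0.096. Pdgfa to Pdgfra ran from −0.026 to 0.070 in Dex_CDGHDM and from −0.056 to 0.069 in AM155, Pdgfd to Pdgfrb from −0.26 to −0.18 in Dex_CDGHDM, called without Dex_CDGHDM 2, CDG_HDM 4 or CDG_HDM 8, and from −0.086 to 0.0058 in AM155, and Pdgfc to Pdgfd in Dex_CDGHDM from −0.11 to 0.029. Relative to markers, Pdgfb in Dex_CDGHDM ran from −0.057 to 0.024, Pdgfrb from −0.0090 to 0.032 in CDG_HDM against Saline and from 0.083 to 0.14 in Dex_CDGHDM, called without CDG_HDM 4, and Pdgfra in CDG_HDM against Saline from −0.24 to −0.12, called without Saline 4.

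Counts of called genes moved with scaling. In CDG_HDM against Saline 1631 genes were higher and 3976 lower, against 4567, 3873 and 3571 higher under common-sum, median-of-ratios and quantile scaling, and 7744 lower with weights. The higher share of calls was 29.1% on deposited TPM, 62.8%, 50.4% and 45.7% under those scalings and 21.2% with weights. With each library left out 1445 to 1716 were higher and 2995 to 5940 lower. In Dex_CDGHDM against CDG_HDM 0 were higher and 1 lower in limma. Higher calls were 1 without a filter, 29, 31 and 40 under the 3 scalings, 4 with weights and 1 without the 3 libraries. Lower calls were 0 with a pseudocount of 0.1, 6, 16 and 23 under the scalings, 2 in the 2-group fit, 7 with weights, 2 without the 3 libraries and 0 to 2 with each library left out. In AM155 against CDG_HDM 16 were higher and 2 lower. Higher calls were 37, 32 and 30 under the scalings and 7 to 20 with each library left out. Lower calls were 1 with a common sum, 1 in the 2-group fit, 1 without the 3 libraries and 0 to 5 with each library left out.

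The correlation of same-numbered libraries about their group means was −0.17 to 0.27 over 4 pairs of CDG_HDM and Saline, against −0.23 to 0.24 over 46 other pairs. It was −0.24 to 0.02 over 3 pairs of Dex_CDGHDM and CDG_HDM (−0.44 to 0.47 over 57 others). For AM155 and CDG_HDM it was −0.03 to 0.07 over 3 pairs (−0.47 to 0.36 over 57 others). So few pairs cannot settle whether replicate numbers pair the libraries. A fit with the number as a replicate block gave −0.38 for Pdgfb (adjusted p = 0.0626) and −0.38 for Pdgfd (adjusted p = 0.0752) in CDG_HDM against Saline, no longer called. In the block fit the differences in Dex_CDGHDM against CDG_HDM were −0.031 for Pdgfa, −0.088 for Pdgfb, 0.00085 for Pdgfc and −0.11 for Pdgfra, that of Pdgfb in AM155 against CDG_HDM was −0.12, and that of Pdgfrb in Dex_CDGHDM after median-of-ratios scaling was 0.21 (adjusted p = 0.331). Called genes in the block fit were 2097 lower in CDG_HDM against Saline (36.7% of calls higher), 0 lower in Dex_CDGHDM and 6 higher and 4 lower in AM155.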
